A study of Homo sapiens with 4 samples.

Results

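Epithelial cells and mesenchymal cells are told apart by a small set of switch genes, and 10 of them are described here in H1299. This human cell line, long in use, comes from a non-small-cell lung carcinoma and makes no p53 of its own. The genes were chosen by name and matched through their Ensembl gene IDs, and all 10 were found among the 61852 genes of the deposited tables. They are the epithelial genes CDH1, EPCAM and ESRP1, the mesenchymal genes CDH2 and VIM, and the transcription factor genes ZEB1, ZEB2, SNAI1, SNAI2 and TWIST1. Polyadenylated RNA was sequenced in 4 libraries, 2 from H1299 cells expressing CASM34 and 2 from H1299 cells expressing wild-type p53 (p53WT). CASM34 is labelled as a mutant of p53, and the series title speaks of synonymous mutations found in cancer. Cells of both groups carry the p53-/- genotype of the line and were grown in RPMI 1640 with serum, and the labels give no further treatment, no time point and no word on how the p53 forms were delivered or on whether the 2 libraries of a group came from separate cultures. Every p-value here thus measures the spread between these libraries only, which may be technical. H1299 cells with neither p53 form were not analysed here, so the state described is that of the line with one or the other form present. In bulk RNA of this kind, fewer cells of a type and less RNA per cell cannot be told apart.

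In an epithelial sheet, E-cadherin, the product of CDH1, holds neighbouring cells together, and in the epithelial-mesenchymal transition its gene is shut down by repressors that bind E-box motifs, among them the ZEB, SNAI and TWIST proteins. Cells then rely on N-cadherin, the product of CDH2, and on the intermediate filament protein vimentin, the product of VIM. Splicing changes as well, since the ESRP proteins that enforce epithelial exon choice are lost. MicroRNAs of the miR-200 family and the ZEB factors repress each other, which makes the switch bistable, and p53 has been tied to this circuit through miR-34a and miR-200c.

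The microRNAs of that circuit and their matches in the ZEB and SNAI messages are shown because the message levels reported here sit on both sides of it. The microRNAs themselves were not measured by these libraries. Capitals mark the seed, bases 2 to 8 of the mature RNA, and the sequences are those of RefSeq on GRCh38.p14. The first 3 share the seed AAUACUG and the next pair the seed AACACUG, while miR-34a has a seed of its own.
hsa-miR-200b-3p: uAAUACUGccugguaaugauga
hsa-miR-200c-3p: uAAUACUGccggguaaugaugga
hsa-miR-429: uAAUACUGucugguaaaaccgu
hsa-miR-200a-3p: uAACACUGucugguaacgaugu
hsa-miR-141-3p: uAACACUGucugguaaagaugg
hsa-miR-34a-5p: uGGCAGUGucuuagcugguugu

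The 3′ untranslated region of ZEB1, 1938 bases long in the GENCODE 29 transcript ENST00000320985.14, holds the 7-base match CAGTATT at 5 places and the match CAGTGTT at 3. That of ZEB2, 5370 bases long in ENST00000627532.2, holds CAGTATT at 5 places and CAGTGTT at 4. Among 3′ untranslated regions of tested genes within 20% of the same length, CAGTATT occurred at least once in 20.8% of 1697 regions for ZEB1 and in 45.5% of 771 regions for ZEB2. It occurred at as many places or more in 0.0589% and 0.13% of them. For CAGTGTT the shares were 23.6% and 53.2% with at least 1 place, and 0.177% and 1.56% with as many or more. Each set of regions includes that of the ZEB gene itself, and for CAGTATT no other region in either set had as many places. For each gene the longest such region among its annotated principal transcripts was used. The 5 places in each message are given with 11 bases on either side, on the sense strand with coordinates of GRCh38, and capitals mark the match.
ZEB1, chr10:31527622-31527650, plus strand: ttttatcttatCAGTATTatcactcttat
ZEB1, chr10:31527716-31527744, plus strand: taaatccgcttCAGTATTttattatgttt
ZEB1, chr10:31528145-31528173, plus strand: gtgccatttctCAGTATTttcaaggctct
ZEB1, chr10:31528496-31528524, plus strand: tttttacctatCAGTATTattttatttct
ZEB1, chr10:31528566-31528594, plus strand: ttcaaacctggCAGTATTaatacccttct
ZEB2, chr2:144389042-144389070, minus strand: ctaccatacatCAGTATTtttattattat
ZEB2, chr2:144388979-144389007, minus strand: ctacaatgcatCAGTATTatgattcctct
ZEB2, chr2:144388621-144388649, minus strand: agcacccatgtCAGTATTagaagaatagg
ZEB2, chr2:144388536-144388564, minus strand: attaattttgtCAGTATTacaccaaactg
ZEB2, chr2:144388405-144388433, minus strand: actgtagtgtaCAGTATTatagttcttca

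SNAI1 holds 1 match to the miR-34a seed, CACTGCC, in a 3′ untranslated region of 830 bases, where 10.8% of 1513 regions of similar length hold one. It is shown because the host gene of miR-34a was measured.
SNAI1, chr20:49988131-49988159, plus strand: cacatccttctCACTGCCatggaattccc
The 3′ untranslated regions of VIM, CDH2 and TWIST1 hold 0 matches to any of the 3 seeds, and that of SNAI1 holds 0 to the miR-200 family seeds. In regions of similar length 0 was the usual count. Depending on the seed, a match occurred in 2.62% to 4.94% of them for VIM and 13.9% to 15.7% for CDH2. For TWIST1 it was 7.79% to 11.7%, and for the miR-200 family seeds in SNAI1 9.45% and 10.7%. SNAI2 was not searched. A match is a string of letters in the annotation and says nothing of use in these cells.

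The 10 genes formed a steep order of levels, from among the most abundant messages of the cell down to a few reads. Levels are given in TPM, a unit that divides counts by gene length and so allows genes to be compared within a library. Averaged over the 4 libraries, VIM lay at 3440 TPM, TWIST1 at 17.98, CDH2 at 14.4, ZEB1 at 9.59, ZEB2 at 6.63 and SNAI1 at 2.67 TPM. SNAI2, EPCAM, ESRP1 and CDH1 lay at 0.253, 0.163, 0.118 and 0.0975 TPM. The libraries of TWIST1 and CDH2 overlapped in range, and so did each pair of neighbours from SNAI2 down to CDH1, so the order within those stretches is not settled. For the other neighbours in the order, the ranges over the 4 libraries did not overlap.

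**Figure D1:**
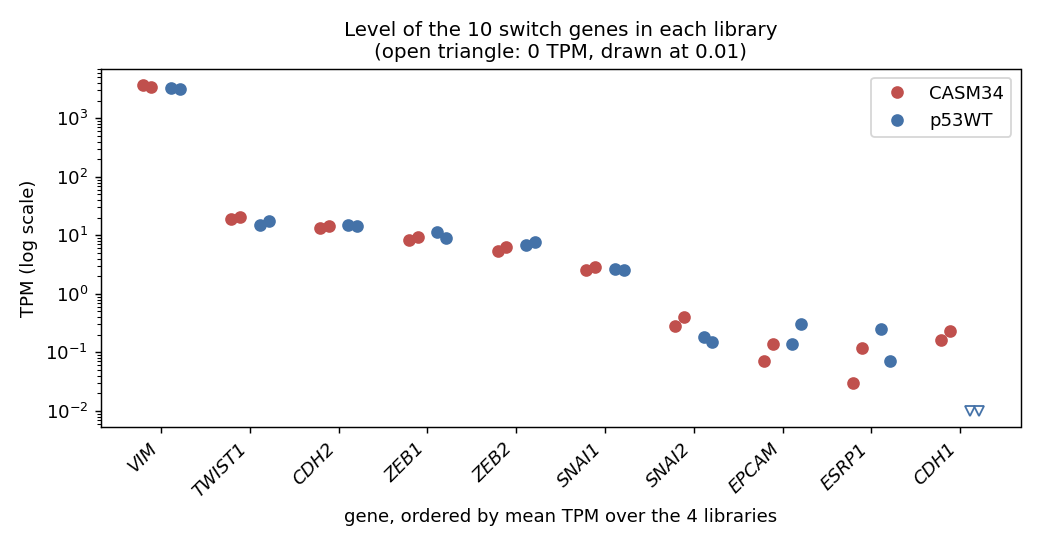
Level of each of the 10 switch genes in TPM on a log scale, with 1 point per library, CASM34 in red and p53WT in blue; an open triangle is a library at 0. VIM stands alone near 3440 TPM, a middle group runs from TWIST1 to SNAI1, and SNAI2, EPCAM, ESRP1 and CDH1 lie at or under 0.40 TPM in every library.

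The epithelial members were at the edge of detection in both groups. CDH1, the gene for E-cadherin (ENSG00000039068.20), had 1 and 2 counts in the CASM34 libraries and 0 and 0 counts in the p53WT libraries. A count of 0 allows up to 3 counts, or 0.138 and 0.116 CPM in the 2 p53WT libraries (CPM being counts scaled to a common library size), so no difference could be seen at this depth, and these limits cover counting error only. EPCAM, the gene for an epithelial adhesion protein widely used as a carcinoma marker, had 2 and 1 counts in CASM34 and 3 and 8 counts in p53WT. ESRP1, which encodes the epithelial splicing regulator, had 2 and 3 counts in CASM34 and 8 and 4 counts in p53WT. These 3 genes were too low to be tested, and no fold is given for them.

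The mesenchymal members were well measured and stood at like levels of CPM in the 2 groups. VIM (ENSG00000026025.16, chr10:17228259-17237593, plus strand, GENCODE 29 on GRCh38) was above at least 99.8% of the genes with a TPM above 0 in every library. It had 4484 and 4239 CPM in CASM34 libraries and 4301 and 4257 CPM in p53WT libraries, and the groups overlapped. Its log2 fold change was 0.03 (SE 0.05, edgeR adjusted p = 0.808), and its 95% interval ran from 0.952-fold to 1.09-fold. The sign turned with the GC and length offset and without CASM34 replicate 1, at -0.013 and -0.014. In TPM the groups did not overlap, with 3735 and 3466 TPM in CASM34 and 3333 and 3225 TPM in p53WT. TPM divides by the effective length, which RSEM estimated at 1417 and 1448 bases in CASM34 and at 1548 and 1557 bases in p53WT. By limma on log2(TPM + 1) VIM lay at 0.13 and did not pass (adjusted p = 0.474). In edgeR with the effective length offset VIM also lay at 0.13 (SE 0.05) and did not pass (edgeR adjusted p = 0.373). VIM had fractional counts in all 4 libraries, and the antisense gene VIM-AS1 overlaps it by 1727 bases, with 192 and 136 counts in CASM34 and 150 and 191 counts in p53WT.

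CDH2, the gene for N-cadherin (ENSG00000170558.10, chr18:27950966-28177446, minus strand), had 38.4 and 42.0 CPM in CASM34 and 41.8 and 40.1 CPM in p53WT. The ranges overlapped, with the CASM34 libraries at both ends. Its log2 fold change was -0.03 (SE 0.07, edgeR adjusted p = 0.859), with an interval from 0.887-fold to 1.08-fold, and the sign turned with the GC and length offset and without CASM34 replicate 1 (0.0045 and 0.038).

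The 2 ZEB genes encode zinc finger and homeobox repressors of CDH1. ZEB1 (ENSG00000148516.23, chr10:31318495-31529814, plus strand) had 34.7 and 39.1 CPM in CASM34 and 41.9 and 35.8 CPM in p53WT. The libraries were interleaved. Its log2 fold change was -0.08 (SE 0.08, edgeR adjusted p = 0.685), and it turned to 0.01 without CASM34 replicate 1 and to 0.03 without p53WT replicate 1. ZEB1-AS1, a divergent antisense RNA that overlaps ZEB1 by 1953 bases, had 4.38 and 4.66 CPM in CASM34 and 5.57 and 6.08 CPM in p53WT and did not pass either (log2 fold change -0.37, edgeR adjusted p = 0.264). The strand setting of the counting is not given in the sources used here, so reads of the shared stretch cannot be assigned with certainty.

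ZEB2 (ENSG00000169554.23, chr2:144364364-144524583, minus strand) had 18.0 and 18.5 CPM in CASM34 and 21.1 and 21.9 CPM in p53WT. Both CASM34 libraries lay below both p53WT libraries. Its log2 fold change was -0.24 (SE 0.08), a ratio of 0.847 with an interval from 0.746 to 0.962, and it did not pass over all genes tested (edgeR adjusted p = 0.168, unadjusted p = 0.0144 in the same edgeR fit). In the 12 other settings it stayed between -0.35 and -0.21 and passed in none of them (edgeR, DESeq2 or limma adjusted p from 0.0999 to 0.498).

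Among the SNAI genes, which encode zinc finger repressors of the Snail family, SNAI1 was present at a low level and SNAI2 was nearly silent. SNAI1 (ENSG00000124216.4, chr20:49982999-49988886, plus strand) had 81 and 62 counts in CASM34 and 68 and 79 counts in p53WT, which is 3.03 and 3.40 CPM against 3.13 and 3.06 CPM. The groups overlapped. Its log2 fold change was 0.05 (SE 0.20, edgeR adjusted p = 0.930), and the interval from 0.764-fold to 1.40-fold rests on these few counts. The sign turned with the GC and length offset and without CASM34 replicate 2 (-0.05 and -0.03). SNAI2 (ENSG00000019549.13), which encodes Slug, had 12 and 8 counts in CASM34 and 6 and 6 counts in p53WT. Both CASM34 libraries were higher, but the log2 fold change of 0.80 had an SE of 0.61 and did not pass (edgeR adjusted p = 0.546), with an interval from 0.701-fold to 4.33-fold.

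TWIST1, a basic helix-loop-helix factor gene (ENSG00000122691.13, chr7:19020991-19117672, minus strand), had the smallest adjusted p of the 7 tested genes. It had 16.1 and 16.3 CPM in CASM34 and 12.5 and 13.5 CPM in p53WT, so both CASM34 libraries stood above both p53WT libraries. Its log2 fold change was 0.32 (SE 0.10), a ratio of 1.25 with an interval from 1.07 to 1.44, and it did not pass over all genes tested (edgeR adjusted p = 0.124, unadjusted p = 0.00715 in the same edgeR fit). In the 12 other settings it lay between 0.24 and 0.38 and passed in 1 of them (edgeR, DESeq2 or limma adjusted p from 0.0377 to 0.517). Its paralog TWIST2, singled out after its values were seen, was at a like level, with 20.2 and 21.8 TPM in CASM34 and 18.7 and 18.4 TPM in p53WT, and did not pass (log2 fold change 0.18, edgeR adjusted p = 0.356).

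**Figure D2:**
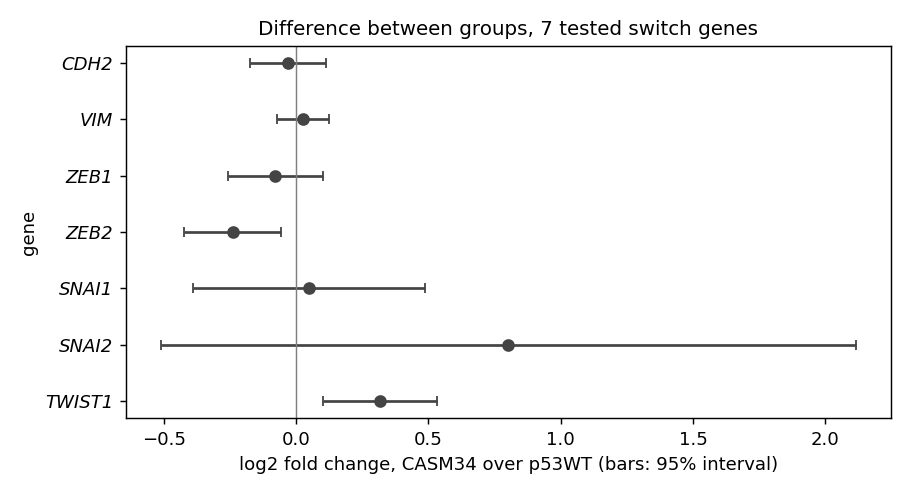
Log2 fold change of CASM34 over p53WT for the 7 tested switch genes, from edgeR on all 4 libraries, with 95% intervals. VIM, CDH2 and ZEB1 have short intervals that include 0, ZEB2 at -0.24 and TWIST1 at 0.32 lie to either side of 0, and SNAI2 at 0.80 has the widest interval.

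Of the 7 tested switch genes, 0 rose and 0 fell in CASM34 by edgeR at an adjusted p under 0.05. Over all 15965 genes tested, 1.95% passed, 1.61% with a rise and 0.345% with a fall. DESeq2 called 0 of the switch genes as well, with 1 at an unadjusted p under 0.05. It gave no adjusted p for SNAI1 and SNAI2, so it could not call these 2. At an unadjusted p under 0.05 in the edgeR fit, 2 of the 7 lay past the line, TWIST1 and ZEB2, where 17.1% of all tested genes did. The groups did not overlap for 3 of the 7 (TWIST1 and SNAI2 higher, ZEB2 lower). Of all tested genes, 47.9% had groups that did not overlap, 24.5% with CASM34 higher and 23.4% with CASM34 lower. SNAI2 entered this count only because its CASM34 libraries met the low-count filter, so its direction is no evidence of a rise. The median log2 fold change of the 7 was 0.03, against -0.00055 over all genes tested. The 3 that were not tested are CDH1, EPCAM and ESRP1, so these counts do not cover the epithelial side of the switch.

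**Figure D3:**
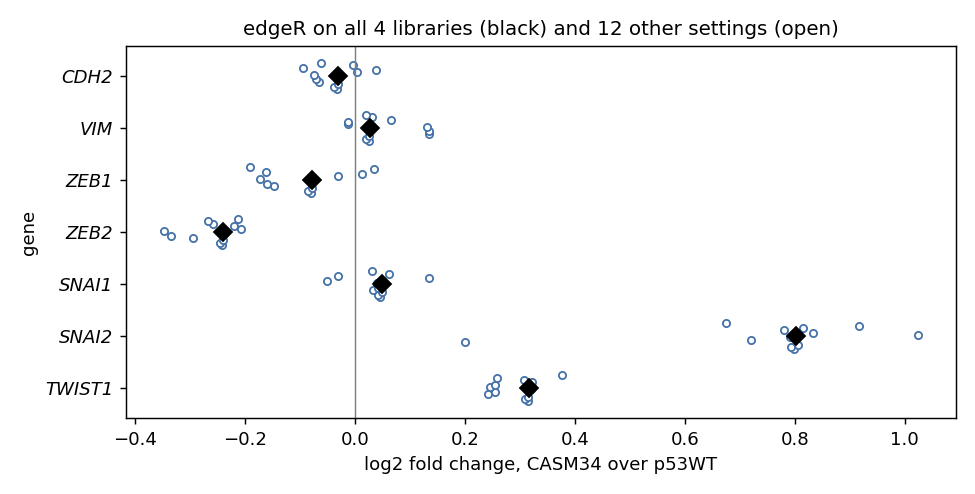
Log2 fold change of CASM34 over p53WT for the 7 tested switch genes under the main test (black) and 12 other settings (open). TWIST1 and SNAI2 stay above 0 and ZEB2 below 0 in all of them, while VIM, CDH2, ZEB1 and SNAI1 cross 0. SNAI2 met the low-count filter only through its CASM34 libraries.

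The libraries held 26906095 and 18086983 estimated counts in CASM34 and 21717726 and 25969760 counts in p53WT. Their trend on GC content moved with the groups: per 10 percentage points of transcript GC the log2 level changed by 0.0635 and 0.0329 in CASM34 libraries and by -0.0556 and -0.0408 in p53WT libraries. The mean transcript GC content was 56.5% for TWIST1 and 45.4% for ZEB2. With an offset for GC content and transcript length together, TWIST1 lay at 0.25 and ZEB2 at -0.21 (adjusted p = 0.289 and 0.321 by edgeR). Of the 312 genes that changed, 257 rose and 55 fell; with that joint offset 38 rose and 43 fell. GC content alone was not offset. The share of counts from the mitochondrial genome was 1.81% and 1.45% in CASM34 and 1.44% and 1.09% in p53WT, and its part in the results was not tested.

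Beyond the switch genes, the H1299 libraries carried messages of both programmes. Of 26 mesenchymal effector genes, 10 averaged 10 TPM or more and 7 under 1 TPM. Highest were CD44, a hyaluronan receptor gene, at 352 TPM, the integrin gene ITGB1 at 283 TPM and AXL, a receptor tyrosine kinase gene, at 271 TPM. The 7 under 1 TPM include THY1 and CDH11, with 0 counts in all 4 libraries. The rest are the collagen genes COL5A1, COL1A1, COL5A2, COL1A2 and COL3A1, at 0.84, 0.74, 0.175, 0.0675 and 0.005 TPM. Of 16 other factors linked to the mesenchymal state, 9 averaged 10 TPM or more, led by YBX1, a cold shock domain protein gene, at 1863 TPM, the E-protein gene TCF3 at 133 TPM and the splicing factor gene QKI at 68.7 TPM.

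The epithelial side was split as well. Of 15 epithelial regulators, 11 averaged under 1 TPM. The highest were the Kruppel-like factor genes KLF4 and KLF5, at 14.7 and 3.71 TPM, and GRHL1 at 2.33 TPM. GRHL2, a grainyhead factor gene that activates CDH1, had 0 counts in all 4 libraries, and ESRP2, the paralog of ESRP1, had 9 and 17 counts in CASM34 and 9 and 7 counts in p53WT (both singled out after their values were seen). The keratin partners of simple epithelia stayed high all the same: KRT18 had 1096 and 1091 TPM in CASM34 and 1096 and 1091 TPM in p53WT, and KRT8 averaged 437 TPM over the 4 libraries. Both keratin genes have many near-identical processed pseudogenes, so their counts are uncertain to the extent that reads were split among copies. AP1M2, an epithelial clathrin adaptor gene, averaged 26.5 TPM, while 7 of the 15 keratin and surface genes averaged under 1 TPM. Among 25 junction genes 6 averaged 10 TPM or more and 5 under 1 TPM. The highest were the catenin genes CTNNB1, CTNNA1 and CTNND1, at 119, 116 and 39.5 TPM. Catenins bind N-cadherin as well as E-cadherin, so their levels do not mark a cell as epithelial. Other junction genes were present at lower levels, among them CLDN1 at 14.2 TPM and OCLN at 8.24 TPM, while CLDN7 averaged 0.035 TPM. CLDN1, OCLN and CLDN7 were singled out after their values were seen.

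**Figure D4:**
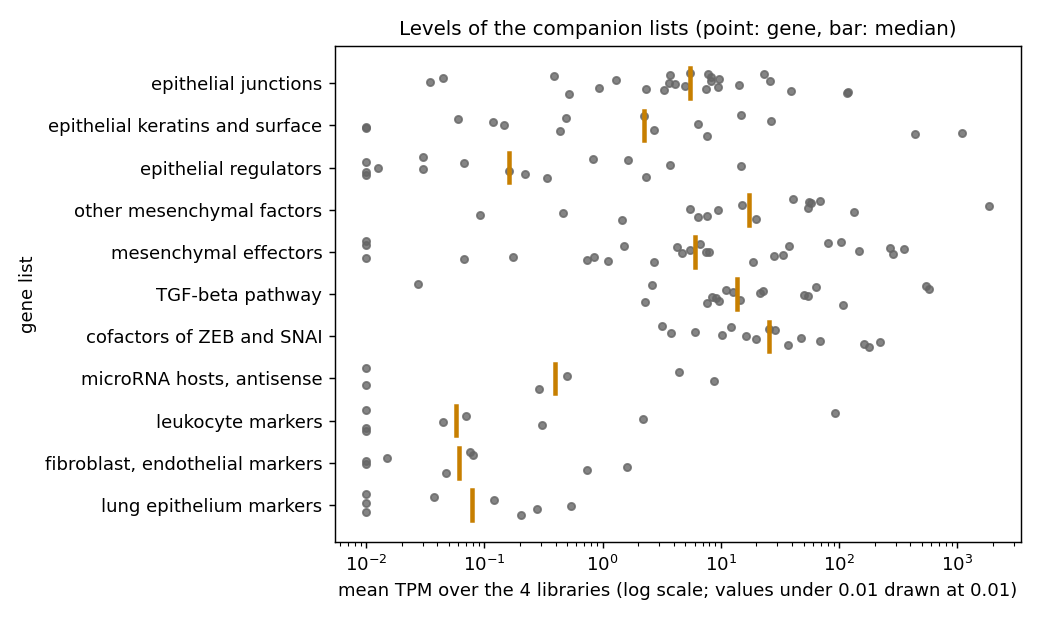
Mean TPM over the 4 libraries, on a log scale, of each gene in the 11 companion lists, with the list's median as a bar. The epithelial regulators have a median of 0.16 TPM and the other mesenchymal factors one of 17.4 TPM, and the marker lists of leukocytes, fibroblasts and endothelium, and lung epithelium lie below 0.1 TPM in the median.

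Between the groups, 1 of the 112 tested genes of the companion lists changed, where 1.95% of all tested genes did, and no list had a fall. ID3, the gene for an inhibitor of basic helix-loop-helix factors that answers to BMP and TGF-beta signals, had 314 and 319 CPM in CASM34 and 260 and 280 CPM in p53WT. Its groups did not overlap, and it rose by 0.23 on the log2 scale (SE 0.05, edgeR adjusted p = 0.0336). It did not pass without p53WT replicate 1 or without p53WT replicate 2 (0.17 and 0.28, edgeR adjusted p = 0.258 and 0.0655), nor once GC and length were offset (0.18, adjusted p = 0.0717 by edgeR). It was the only one of 17 tested TGF-beta pathway genes to pass. The other leading genes of that list did not: ID1, at 574 TPM, had a log2 fold change of 0.13 and the ligand gene TGFB1, at 107 TPM, one of 0.12 (edgeR adjusted p = 0.155 and 0.198).

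None of the other lists had a gene that passed by edgeR. That holds for 22 tested junction genes, of which 5 had an unadjusted p under 0.05, 10 keratin and surface genes (2), 5 epithelial regulators (2), 14 other mesenchymal factors (3), 22 mesenchymal effectors (5) and 15 corepressors and turnover enzymes of the ZEB and SNAI factors (5). The TGF-beta pathway list had 5. Over all companion lists, chosen with earlier results of these data known, 30 of 112 genes lay under that unadjusted line. Of all tested genes, 17.1% did. The 30 became 17 with the GC and length offset, 16 with the effective length offset, 15 with DESeq2, and 11 and 9 in the limma fits. Over all genes, 2734 became 2000, 1901, 1393, 1820 and 1811 in the same order. With median-of-ratios scaling the lists again had 30, and with the replicate block 29. DESeq2 called 2 of the 112. The median log2 fold change was 0.05 for junction genes and 0.05 for keratin and surface genes. It was 0.21 for epithelial regulators, where only 5 of 15 genes were tested. Of these 5, 0 had an unadjusted p under 0.05 in edgeR with the GC and length offset, and 2 with the effective length offset. The median was 0.01 for other mesenchymal factors, 0.04 for mesenchymal effectors and -0.04 for the corepressor list. Its most abundant genes, the deacetylase genes HDAC2 and HDAC1 and the corepressor gene CTBP1, lay at -0.12, -0.08 and 0.13 (edgeR adjusted p = 0.177, 0.373 and 0.180).

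**Figure D5:**
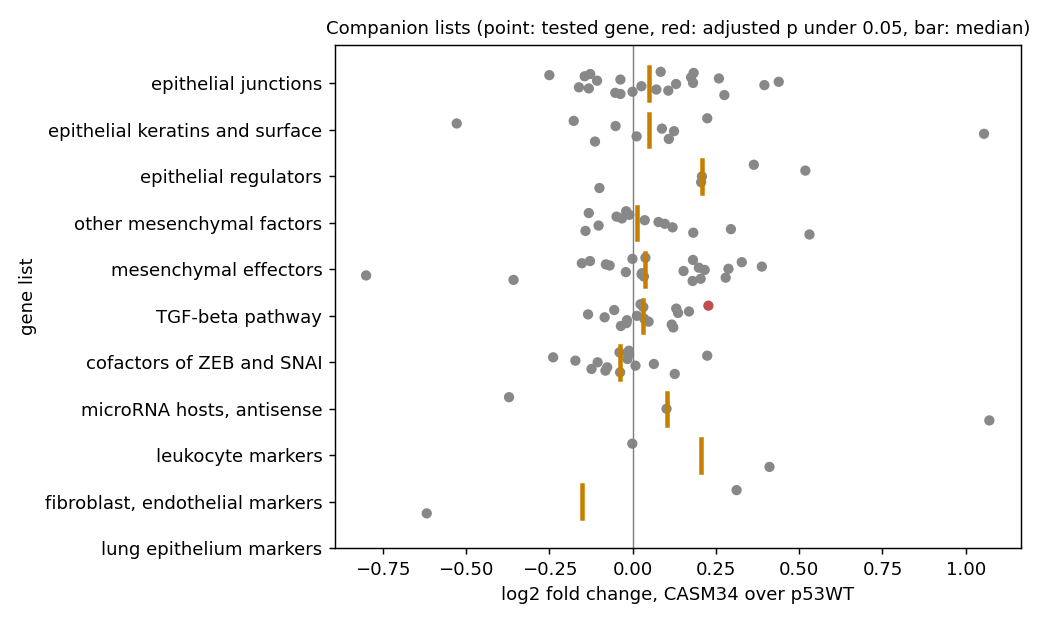
Log2 fold change of CASM34 over p53WT for each tested gene of the companion lists, with the list's median as a bar. ID3 in the TGF-beta pathway, at 0.23, is the only red point, and no lung epithelium marker was high enough to be tested.

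Host genes were looked at for miR-200c, miR-141 and miR-34a, and not for miR-200b, miR-200a and miR-429. MIR200CHG, the host of miR-200c and miR-141, had 0 counts in all 4 libraries. That allows up to 0.112 and 0.164 CPM in the CASM34 libraries and 0.138 and 0.116 CPM in the p53WT libraries. RSEM gave MIR200CHG an effective length of only 74.3 to 77.4 bases. Per length these bounds are thus weak, and the 0 counts do not show a silent host. MIR34AHG, the host of miR-34a and a direct p53 target, had 32 and 24 counts in CASM34 and 16 and 12 counts in p53WT. Both CASM34 libraries lay higher, but the log2 fold change of 1.07 (SE 0.41) did not pass (edgeR adjusted p = 0.198). Both were singled out after their values were seen. The list holds 6 genes, hosts of microRNAs tied to p53 or to the ZEB and SNAI factors together with the antisense RNAs ZEB1-AS1 and ZEB2-AS1. Of these 6 genes 3 were tested and 0 passed by edgeR, with 2 at an unadjusted p under 0.05, MIR34AHG and ZEB1-AS1. Its most abundant gene, MIR22HG, averaged 8.70 TPM and had a log2 fold change of 0.10 (edgeR adjusted p = 0.719), and MIR17HG averaged 0.50 TPM and was not tested.

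Markers of other cell types were low apart from single genes. Summed over 8 fibroblast and endothelial markers, the level was 0.61 and 3.31 TPM in CASM34 and 0.82 and 5.63 TPM in p53WT, and LUM had 0 counts in all 4 libraries. The highest on average were DCN at 1.62 TPM, PDGFRB at 0.743 TPM and VWF at 0.08 TPM. The first 2 means and the larger sums rest mostly on single libraries with few counts and a short effective length. DCN had 5.06 TPM in p53WT replicate 2, from 17 counts at 153 bases, and at most 0.87 TPM elsewhere. PDGFRB had 2.28 TPM in CASM34 replicate 2, from 11 counts at 313 bases, and at most 0.38 TPM elsewhere. Of the 2 tested, DCN and VWF, 0 passed by edgeR with 0 at an unadjusted p under 0.05. The 8 leukocyte markers summed to 96.8 and 98.0 TPM in CASM34 and 94.0 and 88.6 TPM in p53WT, nearly all of it CD68, a lysosomal protein gene, at 91.7 TPM. PTPRC, the pan-leukocyte gene, CD3E and CSF1R had 0 counts in all 4 libraries, ITGAM averaged 2.21 TPM, and 0 of the 2 tested leukocyte markers passed by edgeR (1 at an unadjusted p under 0.05). The 8 lung epithelial lineage markers summed to 1.38 and 2.21 TPM in CASM34 and 0.58 and 0.54 TPM in p53WT. None was high enough to be tested, the highest being NAPSA, SFTPC and NKX2-1 at 0.538, 0.28 and 0.203 TPM averaged over the 4 libraries. NKX2-1 had 8 and 12 counts in CASM34 and 3 and 6 counts in p53WT, while 3 of the 8 markers had 0 counts in all 4 libraries. The lung epithelial origin in the labels thus could not be read from these genes, which lay near the edge of detection.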

How the data were processed

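RNA was measured in 4 libraries, grouped by their titles. The submitters' processing notes name GRCh38 and the tools RSEM, STAR and Trim Galore, with no version. For the annotation release and the strand setting, the sources used here give nothing. The deposited expected counts are RSEM estimates, per the file headers, in which 8.63% to 9.26% of genes per library were not whole (tolerance 0.001). The deposited TPM values, per the file headers, divide them by effective length and scale them to a fixed total. Other per-gene columns, the lengths in bases, are RSEM's too, per the file headers.

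Symbols matched 61803 of 61852 gene IDs; coordinates are GENCODE 29, matched by ID without its version. Counts were rounded and tested in R 4.3.3 with edgeR 4.0.16 (quasi-likelihood F test, no term but the group, TMM). The filterByExpr minimum of 10 counts, taken at the median library size in at least 2 libraries, left 15965 genes and took out 45887. Fold changes set CASM34 over p53WT. SE is the absolute log2 fold change over the square root of F, 95% intervals use the t distribution, and adjusted p-values (Benjamini-Hochberg, all genes tested) under 0.05 count as called. CPM uses TMM factors. The common dispersion was 0.00193. The script was tested on simulated data. Alternatives used median-of-ratios scaling, no low-count filter, DESeq2 1.42.0, limma 3.58.1 on log2(TPM + 1) and log2(TPM + 0.1), a replicate block, 2 offsets (effective length; splines of 5 degrees of freedom on GC and length) and each library left out. Members and lists were chosen with earlier results of these data known; named genes are the 10 members and, per list, genes that passed and the 3 highest in mean TPM. Some genes that this rule or the design would name are not reported here.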

Additional observations from a re-analysis of the deposited data

How the results depend on the processing

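The count of 0 switch genes changed held in 11 of the 12 other settings, though DESeq2 gave no adjusted p for SNAI1 and SNAI2. With the replicate block, TWIST1 passed (log2 fold change 0.32, edgeR adjusted p = 0.0377), making it 1. The numbers S1 and S2 in the titles are shared by the groups, and whether they pair the libraries is not known. Deviations of same-numbered libraries had a correlation of 0.0876 over 9947 genes. With 2 libraries per group this cannot settle the pairing, and the main fit did not use it. The block gave 7 calls among the companion lists and 1159 over all genes, against 1 and 312. The signs of some small, uncalled differences turned. With the GC and length offset CDH2 lay at 0.0045, VIM at -0.013 and SNAI1 at -0.051. With 1 library left out, CDH2 ran from -0.094 to 0.038, VIM from -0.014 to 0.065, ZEB1 from -0.19 to 0.034, SNAI1 from -0.031 to 0.14 and TWIST1 from 0.26 to 0.38, with 0 switch genes called each time. The companion lists had 5 calls with no filter on low counts, 2 with DESeq2, 0 in limma on log2(TPM + 1), 0 on log2(TPM + 0.1), 0 with the effective length offset, 1 (a fall) with the GC and length offset, and 0 to 4 with 1 library left out (4 and 3 without CASM34 replicates 1 and 2, 0 without either p53WT replicate). Over all genes the calls were 777 with no filter, 0 in both limma fits (1820 and 1811 at an unadjusted p under 0.05), 3 with the effective length offset, 81 with the GC and length offset, and 81 to 885 with 1 library left out: 482 without CASM34 replicate 1, 885 without CASM34 replicate 2, 81 without p53WT replicate 1 and 92 without p53WT replicate 2. ID3 did not pass in limma on log2(TPM + 1) (0.22), on log2(TPM + 0.1) (0.22) or with either offset (0.22 for effective length, 0.18 for GC and length). In the fits that leave out a library, the lone library of a group is assumed to vary like the pair. The cause of these changes was not tested. Depth limits CDH1, EPCAM, ESRP1 and SNAI2, which had at most 12 counts in any library.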
